A study of Homo sapiens with 9 samples.

Results

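The proteasome is the protease complex that degrades proteins tagged with ubiquitin. Its core particle is a barrel of stacked alpha and beta rings, with the catalytic sites facing inwards on some of the beta subunits, and the regulatory particle that caps the barrel binds ubiquitin chains, unfolds the substrate with a ring of ATPases and feeds it through the gate formed by the alpha subunits. Other caps, an inhibitor and dedicated assembly chaperones act on the same core, and transcription of the subunit genes is known to be driven in concert by NFE2L1 when the proteasome is inhibited.

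Proteasome genes were followed here in PC3 cells, a human cell line from a bone metastasis of prostate carcinoma. RNA was measured on Affymetrix U133 Plus 2.0 arrays, and probe sets with a single gene symbol were taken where the symbol opens with PSMA, PSMB, PSMC, PSMD, PSME, PSMF or PSMG and a digit, without PSMB8 and PSMB9, and each gene was read from its brightest probe set. These were 95 probe sets of 48 symbols, out of 19775 genes with a single-symbol probe set. Of the 48 symbols, 40 are a prefix and a number alone and name proteasome subunits, activators, the inhibitor or assembly chaperones. The other 8 are antisense or divergent transcripts (PSMA3-AS1, PSMB8-AS1, PSMD6-AS2, PSMG3-AS1, PSMD7-DT, PSMD14-DT) and genes for proteins that interact with a subunit (PSMC3IP, PSME3IP1); 5 of these 8 were tested, none passed the test in any comparison, and they enter no count below. Genes were tested if 2 or more arrays had the probe set at or above their 40th percentile of signal, which held for 39 of the 40 proteasome genes. The exception was PSMA8, the alpha subunit known from testis, whose value lay between 3.14 and 3.39 on the 9 arrays. PSMA6 and PSME2 were covered only by probe sets that carry a second gene's symbol and were left out, and PSMC5, PSMD7, PSMD13 and PSMB11 were not analysed here.

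The 9 arrays formed 4 groups, all of PC3 RNA taken after 48 h in culture. Untreated PC3 cells alone gave 2 arrays. In the other groups PC3 cells were co-cultured with mouse calvarial osteoblasts (OB), without contact. Sost knockout osteoblasts gave the group OB SostKO (2 arrays). Wild-type osteoblasts with 100 ng/ml recombinant human DKK1 gave OB WT + rhDKK1 (2 arrays). Wild-type osteoblasts with 100 ng/ml recombinant human SOST gave OB WT + rhSOST (3 arrays). SOST and DKK1 are secreted antagonists of Wnt signaling. Arrays of wild-type osteoblasts without added protein were not analysed here. The osteoblasts and the added protein therefore cannot be told apart in the last 2 groups. Nor can the osteoblasts and the loss of Sost in OB SostKO. The arrays are labelled biological replicates, and 2 or 3 arrays a group limit the precision.

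Values are log2 intensities after robust multi-array averaging (RMA), in which 1 unit is a doubling of signal. The carcinoma markers EPCAM, KRT8, KRT18, KRT19 and VIM had medians between 11.97 and 13.33, and KLK3, listed as low or absent in PC3, passed the filter at 6.93. Of the osteoblast genes, RUNX2 (median 8.96), COL1A1 (9.13), IBSP (5.05) and ALPL (4.78) passed the filter and SP7 and COL1A2 did not, and of the immune genes CD3E (4.76) passed and PTPRC and CD14 did not. Technical probe sets separated the untreated arrays from the co-cultures. Poly-A control spikes read 10.99 to 11.66 on the untreated arrays and 6.38 to 7.22 on the co-culture arrays, and the difference between 3′ and 5′ probe sets of ACTB was 0.50 to 0.88 against 0.99 to 2.06. The mean of the 18S rRNA probe sets was 12.94 to 13.19 on 6 co-culture arrays, 11.68 and 9.64 on the untreated arrays and 8.71 on OB WT + rhSOST replicate 3. The part of these differences in the results against untreated PC3 was not tested.

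The brightest probe sets of the proteasome genes varied little across the 4 groups. The median of the 39 tested genes spanned 0.23 log2 units from its lowest to its highest array, and this span was not taken over all genes. Relative to the untreated arrays, the mean of the 39 genes lay between -0.067 and 0.007 on each of the 7 co-culture arrays. In PC3 with OB SostKO none of the 39 passed the test (limma, Benjamini-Hochberg adjusted p under 0.05 over 14863 genes), against 3.72% of all genes. The same count was 0 of 39 in OB WT + rhDKK1, against 4.26% of all genes, and 1 of 39, a decrease, in OB WT + rhSOST, against 6.97%. With 39 genes, counts of 0 and 1 are not far from these shares. None of the 39 reached a 2-fold change. In these bulk values a difference in every cell and one in a share of the cells cannot be told apart.

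**Figure D1:**
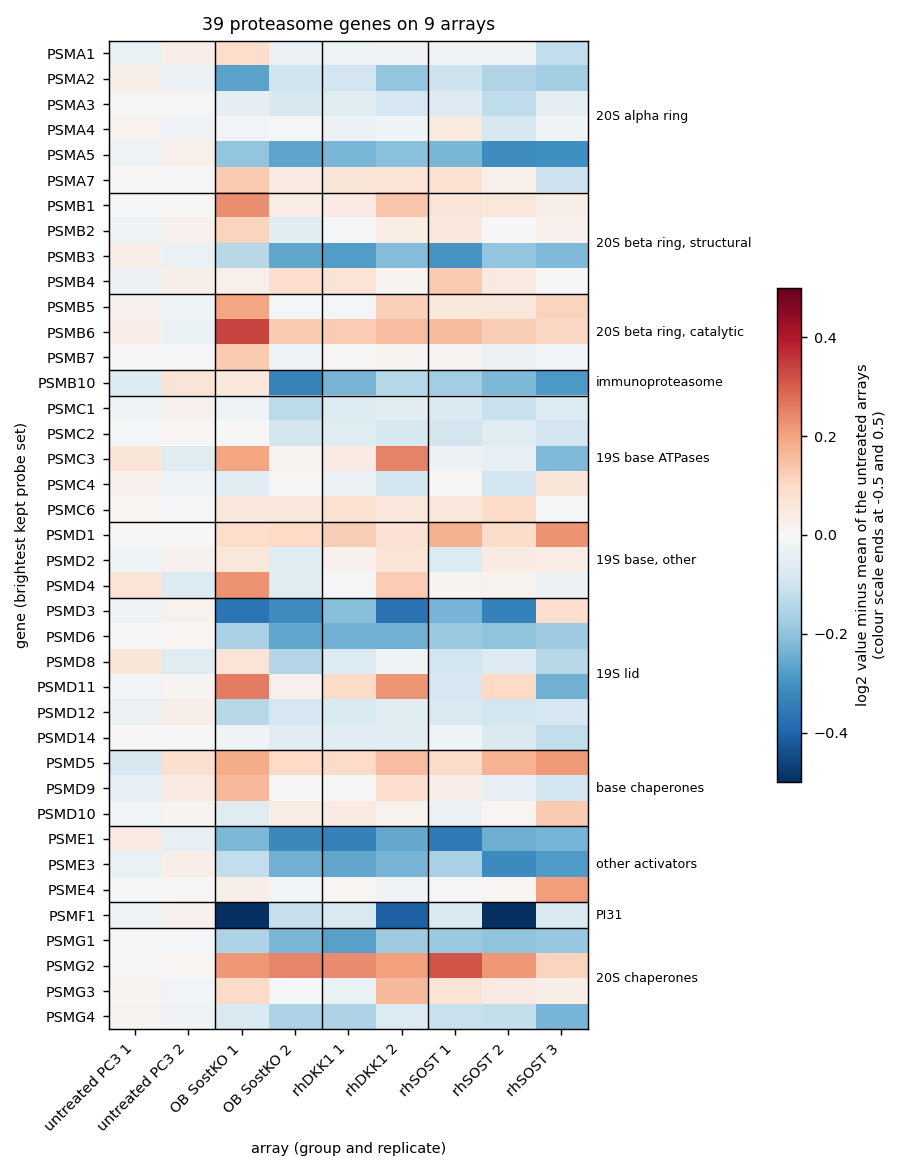
Log2 value of each of the 39 tested proteasome genes (rows, by part of the complex) on each of the 9 arrays (columns), as the difference from the mean of the 2 untreated arrays; colours saturate at -0.5 and 0.5. PSMA5, PSMB3, PSMD6, PSME1, PSME3 and PSMG1 are blue on all 7 co-culture arrays and PSMG2 and PSMB6 red, while PSMF1 is dark on 3 arrays of different groups.

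The sizes of the differences were also small beside those of all genes, which were not matched to the proteasome genes for signal. The probe sets of the 39 genes had levels from 8.59 to 13.47, while all genes reached down to the filter. Other kept probe sets of the proteasome genes spanned a median of 0.41 log2 units over the arrays, against 0.23 for these. The part of signal level in the comparison with all genes was not tested. The median absolute log2 change was 0.09 for the proteasome genes and 0.13 for all genes in OB SostKO, 0.07 and 0.13 in OB WT + rhDKK1, and 0.08 and 0.12 in OB WT + rhSOST. The signed medians were -0.01, -0.02 and -0.05, against -0.01, -0.01 and 0.02 over all genes. Leaving out 1 array took the OB SostKO median from -0.057 (without replicate 1) to 0.031 (without replicate 2), so that it had no settled sign, and the OB WT + rhSOST median to -0.019 without replicate 3. The 95% intervals of 37, 37 and 38 of the 39 genes lay wholly within 0.5 log2 units of 0, a 1.41-fold change either way. At an unadjusted p under 0.05, limma called 8, 7 and 8 of the 39 genes, where 20.7%, 21.3% and 23.6% of all genes passed. In each comparison 6 of the 39 were called lower in co-culture, against 10.1%, 10.1% and 8.09% of all genes. These 3 comparisons share the 2 untreated arrays.

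**Figure D2:**
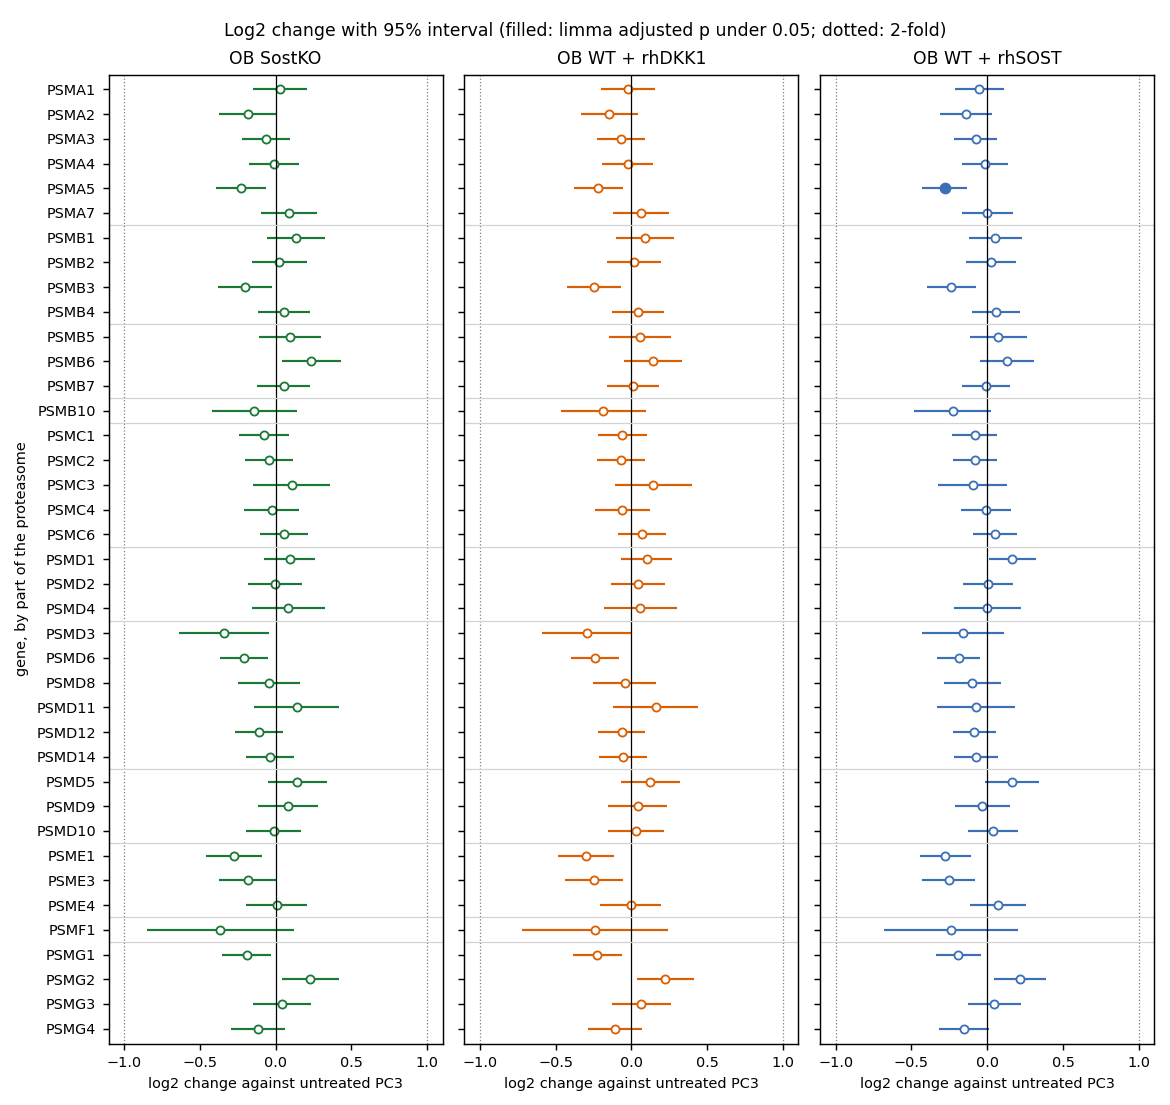
Log2 change against untreated PC3 (x axis) with its 95% limma interval for each proteasome gene (y axis), 1 panel per co-culture group; filled points pass adjusted p under 0.05 and dotted lines mark a 2-fold change. PSMA5 in OB WT + rhSOST is the filled point, and every estimate lies inside the dotted lines.

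Whole groups of arrays did not overlap for a number of genes. On all 7 co-culture arrays 13 of the 39 genes (33.3%) read below both untreated arrays, which 11.3% of all genes did, and 5 of 39 (12.8%) read above both, against 15.4%. The 13 were PSMA2, PSMA3, PSMA5, PSMB3, PSMC1, PSMD6, PSMD12, PSMD14, PSME1, PSME3, PSMF1, PSMG1 and PSMG4, spread over the core, the regulatory particle, the activators and the chaperones. The 5 were PSMB1, PSMB6, PSMD1, PSMD5 and PSMG2. Apart from PSMA5 in OB WT + rhSOST, none of these 18 passed the adjusted test in any comparison. The counts rest on the brightest probe set of each gene. Another kept probe set of PSMA2, PSMA3, PSMA5, PSMD12, PSMF1 and PSMG4 had a positive log2 change in each comparison with untreated PC3. Those of PSME3 were negative in OB SostKO and OB WT + rhDKK1 and mixed in OB WT + rhSOST. The remaining genes of the 13 had a single kept probe set. Among the 5, another PSMB1 probe set of like signal overlapped the untreated arrays, with log2 changes of 0.006, 0.012 and -0.031. Another PSMD1 probe set also overlapped them, with changes of 0.32, 0.36 and 0.06. PSMB6, PSMD5 and PSMG2 had a single kept probe set.

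PSMA5, PSME1 and PSMG1 were among the genes lower on every co-culture array, and their promoters are shown because proteasome genes are known to share regulatory motifs. PSMG1 was picked after its values were seen. Each line is the RefSeq sequence (GRCh38.p14) of the 250 bases before the start of the gene, 5′ to 3′ on the strand of the gene: chr1:109426449-109426698, minus strand, for PSMA5; chr14:24135944-24136193, plus strand, for PSME1; and chr21:39183452-39183701, minus strand, for PSMG1. Capitals mark TGACNNNGC, the antioxidant response element type of motif that NFE2L1 and NFE2L2 bind, and CCAAT, the motif of NF-Y.
PSMA5: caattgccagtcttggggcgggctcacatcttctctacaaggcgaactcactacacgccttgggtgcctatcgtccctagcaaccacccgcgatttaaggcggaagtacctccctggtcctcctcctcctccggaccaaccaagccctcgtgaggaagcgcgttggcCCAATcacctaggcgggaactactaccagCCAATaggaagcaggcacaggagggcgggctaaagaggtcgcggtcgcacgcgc
PSME1: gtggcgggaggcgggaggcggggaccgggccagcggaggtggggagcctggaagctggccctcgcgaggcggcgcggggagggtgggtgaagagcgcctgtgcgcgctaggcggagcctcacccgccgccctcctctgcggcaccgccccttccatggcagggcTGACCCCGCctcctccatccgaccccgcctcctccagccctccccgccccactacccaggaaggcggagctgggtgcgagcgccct
PSMG1: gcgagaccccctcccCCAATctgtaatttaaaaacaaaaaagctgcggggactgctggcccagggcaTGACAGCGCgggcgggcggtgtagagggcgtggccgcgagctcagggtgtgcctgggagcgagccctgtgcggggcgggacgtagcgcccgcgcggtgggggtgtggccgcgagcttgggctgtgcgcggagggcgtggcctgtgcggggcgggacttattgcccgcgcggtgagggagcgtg
PSMA5 held CCAAT at 2 places, the nearer 49 bases from the start, and no TGACNNNGC. PSME1 held TGACNNNGC 77 bases from the start, and PSMG1 held TGACNNNGC 174 bases and CCAAT 230 bases from it. Over windows of 250 bases before to 50 after the start, searched on both strands, 12 of 39 windows (30.8%) of 33 proteasome genes held TGACNNNGC, against 13.3% of all 35116 windows, and 16 (41%) held CCAAT, against 34.6%. Of the 13 genes lower on every co-culture array, PSMB3, PSMD12, PSME1 and PSMG1 held TGACNNNGC in these windows. Of the 5 higher on every co-culture array, PSMD1, PSMD5 and PSMG2 held it, and PSMB1 and PSMB6 had no window. These matches are letters in a window and no measure of binding.

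Among the alpha subunits, which form the outer rings and the gate, PSMA5 was the gene that passed the test. It read 12.31 and 12.36 on the untreated arrays, 12.14 and 12.08 with OB SostKO, 12.11 and 12.13 with OB WT + rhDKK1, and 12.11, 12.03 and 12.03 with OB WT + rhSOST. The 7 co-culture arrays all lay under the untreated ones, and the co-culture groups overlapped each other. In OB WT + rhSOST PSMA5 fell by 0.28 on the log2 scale (SE 0.07, limma adjusted p = 0.0395, n = 3 against 2). The change was -0.23 (SE 0.07, limma adjusted p = 0.117) in OB SostKO and -0.22 (SE 0.07, limma adjusted p = 0.130) in OB WT + rhDKK1. The call was lost when any 1 of 7 of the 9 arrays was left out, the SostKO arrays being the exceptions (adjusted p up to 0.146), and a much dimmer second PSMA5 probe set had a log2 change of 0.36 (limma adjusted p = 0.137 over all kept probe sets) in OB WT + rhSOST.

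The other alpha subunits gave no call. PSMA2 read 13.04 and 13.10 on the untreated arrays and 12.80 to 12.97 in co-culture, and PSMA3 read 13.52 and 13.54 against 13.40 to 13.49, so that both stayed below the untreated arrays throughout. On their brightest probe sets PSMA1, PSMA4 and PSMA7 overlapped the untreated arrays, with log2 changes from -0.05 to 0.09 over the 3 comparisons. A less bright PSMA1 probe set read 12.14 and 12.06 untreated and 11.82 to 11.91 in co-culture. Its log2 changes were -0.24 in OB SostKO, -0.22 in OB WT + rhDKK1 and -0.27 in OB WT + rhSOST. None passed with probe sets tested one by one (limma adjusted p = 0.142, 0.165 and 0.0665). Changes of the remaining PSMA1 probe set were -0.03, -0.08 and -0.09.

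**Figure D3:**
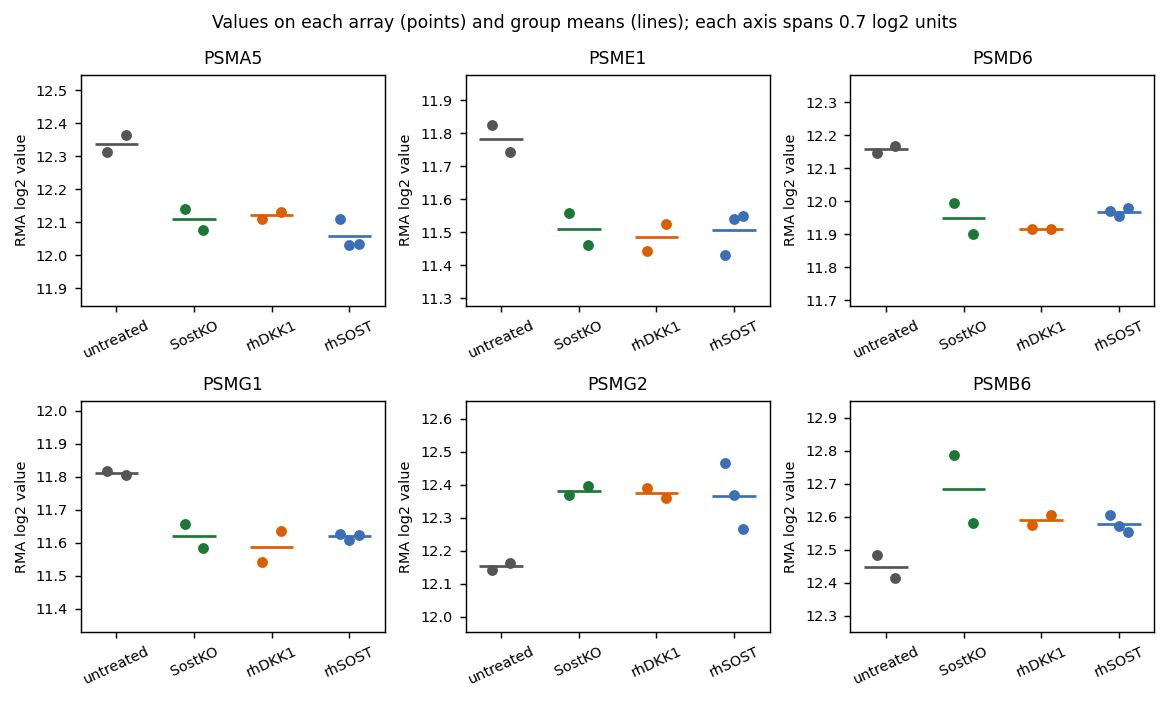
RMA log2 values of PSMA5, PSME1, PSMD6, PSMG1, PSMG2 and PSMB6 on every array (points) with group means (lines), each panel spanning 0.7 log2 units; PSMD6 and PSMG1 were picked after their values were seen. PSMA5, PSME1, PSMD6 and PSMG1 sit below the untreated arrays in every co-culture, PSMG2 and PSMB6 above them, and the 3 co-culture groups lie close together.

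The beta subunits of the inner rings include the catalytic ones and others that complete the rings. PSMB3, which has no active site, read 12.28 and 12.21 on the untreated arrays, 12.11 and 11.98 with OB SostKO, 11.97 and 12.03 with OB WT + rhDKK1, and 11.95, 12.05 and 12.02 with OB WT + rhSOST. No co-culture array reached the untreated values, and the log2 changes were -0.20, -0.25 and -0.24 (SE 0.08, 0.08 and 0.07, limma adjusted p = 0.196, 0.117 and 0.0877). PSMB1, PSMB2 and PSMB4, also structural, had log2 changes between 0.02 and 0.14.

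PSMB5, PSMB6 and PSMB7 carry the chymotrypsin-like, caspase-like and trypsin-like sites. PSMB6 read 12.48 and 12.41 on the untreated arrays, 12.79 and 12.58 with OB SostKO, 12.58 and 12.61 with OB WT + rhDKK1, and 12.61, 12.57 and 12.55 with OB WT + rhSOST. All co-culture arrays were above the untreated ones, with OB SostKO replicate 1 farthest from them. Its log2 changes were 0.24, 0.14 and 0.13 (SE 0.08, 0.08 and 0.08, limma adjusted p = 0.164, 0.379 and 0.360).

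PSMB5, the subunit that bortezomib binds, read 12.54 and 12.49 untreated, 12.71 and 12.51 with OB SostKO, 12.51 and 12.64 with OB WT + rhDKK1, and 12.57, 12.57 and 12.63 with OB WT + rhSOST. PSMB7 read 12.44 and 12.43 untreated, 12.57 and 12.41 with OB SostKO, 12.44 and 12.45 with OB WT + rhDKK1, and 12.45, 12.41 and 12.42 with OB WT + rhSOST. Both genes overlapped the untreated arrays, and their log2 changes ran from -0.01 to 0.09 (limma adjusted p from 0.579 to 0.961). OB SostKO replicate 1 held the highest value of each of the 3 catalytic genes.

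PSMB10 replaces the trypsin-like subunit in the immunoproteasome and is induced by interferon. It read 8.68 and 8.81 untreated, 8.80 and 8.41 with OB SostKO, 8.51 and 8.60 with OB WT + rhDKK1, and 8.57, 8.52 and 8.45 with OB WT + rhSOST. OB SostKO replicate 1 overlapped the untreated arrays and the remaining 6 co-culture arrays lay under them. The log2 changes were -0.14, -0.19 and -0.23 (SE 0.12, 0.12 and 0.11, limma adjusted p = 0.554, 0.422 and 0.258).

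In the base of the regulatory particle, the 5 ATPase genes tested showed log2 changes from -0.10 to 0.14. PSMC1, which helps to open the gate of the core, read 12.1451 and 12.19 untreated, 12.1444 and 12.03 with OB SostKO, 12.10 and 12.12 with OB WT + rhDKK1, and 12.09, 12.05 and 12.10 with OB WT + rhSOST. The co-culture arrays stayed below the untreated ones, OB SostKO replicate 1 by the smallest margin. Its log2 changes were -0.08, -0.06 and -0.08 (limma adjusted p = 0.577, 0.671 and 0.483). PSMC2, PSMC3, PSMC4 and PSMC6 overlapped the untreated arrays.

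PSMD1, a scaffold of the base, read 11.98 and 11.97 untreated, 12.06 and 12.07 with OB SostKO, 12.10 and 12.05 with OB WT + rhDKK1, and 12.15, 12.07 and 12.20 with OB WT + rhSOST. Every co-culture array exceeded both untreated arrays. The log2 changes were 0.09, 0.10 and 0.17 (SE 0.07 in each, limma adjusted p = 0.508, 0.471 and 0.181). PSMD2, the other scaffold, and PSMD4, a ubiquitin receptor, had log2 changes from -0.0011 to 0.08.

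The lid removes ubiquitin from the substrate. PSMD3, a structural lid subunit, read 10.59 and 10.62 untreated, 10.24 and 10.29 with OB SostKO, 10.39 and 10.24 with OB WT + rhDKK1, and 10.37, 10.27 and 10.69 with OB WT + rhSOST. Here 6 of the co-culture arrays lay below the untreated ones and OB WT + rhSOST replicate 3, the array with the lowest 18S rRNA signal, lay above them. The log2 changes were -0.34, -0.29 and -0.16 (SE 0.13, 0.13 and 0.12, limma adjusted p = 0.187, 0.242 and 0.454).

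PSMD6, another lid subunit named after its values were seen, read 12.15 and 12.17 untreated, 11.996 and 11.90 with OB SostKO, 11.92 and 11.92 with OB WT + rhDKK1, and 11.97, 11.95 and 11.98 with OB WT + rhSOST. The groups did not overlap the untreated arrays, with log2 changes of -0.21, -0.24 and -0.19 (SE 0.07, 0.07 and 0.06, limma adjusted p = 0.134, 0.0925 and 0.114). PSMD14, the deubiquitinating enzyme of the lid, read 12.70 on both untreated arrays and 12.57 to 12.68 in co-culture, and PSMD12 read 12.39 and 12.45 against 12.28 to 12.37. PSMD8 and PSMD11 overlapped the untreated arrays.

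PSMD5, PSMD9 and PSMD10 are chaperones that assemble the base and leave the finished particle. PSMD5 read 9.78 and 9.94 untreated, 10.05 and 9.96 with OB SostKO, 9.96 and 10.02 with OB WT + rhDKK1, and 9.96, 10.04 and 10.08 with OB WT + rhSOST. Co-culture values lay above both untreated values, though the gap between the untreated values was of a like size, and the log2 changes were 0.14, 0.13 and 0.16 (limma adjusted p = 0.374, 0.433 and 0.245). PSMD9 and PSMD10 overlapped the untreated arrays.

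Activators other than the regulatory particle can also cap the core. PSME1, a subunit of the interferon-inducible PA28 cap, read 11.82 and 11.74 untreated, 11.56 and 11.46 with OB SostKO, 11.44 and 11.53 with OB WT + rhDKK1, and 11.43, 11.54 and 11.55 with OB WT + rhSOST. All 7 co-culture arrays were at or below 11.56, under both untreated arrays. The log2 changes were -0.27, -0.30 and -0.28 (SE 0.08, 0.08 and 0.07, limma adjusted p = 0.102, 0.0782 and 0.0601), and the last passed (adjusted p = 0.0431) when the filter was set at the 60th percentile.

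PSME3 encodes the nuclear PA28 gamma cap. It read 10.19 and 10.26 untreated, 10.10 and 9.98 with OB SostKO, 9.96 and 9.99 with OB WT + rhDKK1, and 10.06, 9.90 and 9.94 with OB WT + rhSOST. The co-cultures lay below the untreated arrays, with log2 changes of -0.18, -0.25 and -0.26 (SE 0.08 in each, limma adjusted p = 0.258, 0.137 and 0.0836). PSME4, the PA200 cap, read 10.86 and 10.88 untreated, 10.90 and 10.86 with OB SostKO, 10.88 and 10.85 with OB WT + rhDKK1, and 10.86, 10.88 and 11.08 with OB WT + rhSOST. The last array stood above the rest, which overlapped, and the log2 changes were 0.01, -0.0038 and 0.07 (limma adjusted p = 0.964, 0.987 and 0.654).

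PSMF1, the proteasome inhibitor PI31, read 11.16 and 11.20 untreated, 10.56 and 11.06 with OB SostKO, 11.10 and 10.77 with OB WT + rhDKK1, and 11.11, 10.60 and 11.11 with OB WT + rhSOST. One array in each co-culture group stood well below its partners, and the other 4 co-culture arrays lay close under the untreated ones. The log2 changes were -0.36, -0.24 and -0.24 with the widest errors among the 39 genes (SE 0.21, 0.21 and 0.19, limma adjusted p = 0.370, 0.548 and 0.499). A second PSMF1 probe set read 10.29 and 10.41 untreated and 10.36 to 10.51 in co-culture, without the 3 low arrays.

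The last genes encode chaperones that build the core, of which PSMG1 and PSMG2 act as a pair on the alpha ring. PSMG2 read 12.14 and 12.16 untreated, 12.37 and 12.40 with OB SostKO, 12.39 and 12.36 with OB WT + rhDKK1, and 12.47, 12.37 and 12.26 with OB WT + rhSOST. All co-culture arrays lay above the untreated ones, and the log2 changes were 0.23, 0.22 and 0.21 (SE 0.08, 0.08 and 0.07, limma adjusted p = 0.161, 0.167 and 0.129).

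PSMG1, its partner, named after its values were seen, read 11.82 and 11.81 untreated, 11.66 and 11.59 with OB SostKO, 11.54 and 11.64 with OB WT + rhDKK1, and 11.63, 11.61 and 11.62 with OB WT + rhSOST. These lay below the untreated arrays throughout, on the opposite side from PSMG2, with log2 changes of -0.19, -0.22 and -0.19 (SE 0.07, 0.07 and 0.06, limma adjusted p = 0.175, 0.119 and 0.117). PSMG4 read 10.76 and 10.72 untreated and 10.51 to 10.67 in co-culture. PSMG3 overlapped the untreated arrays.

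The co-cultures were compared with each other to ask whether they left different levels of proteasome transcripts. OB SostKO differs from OB WT + rhDKK1 and OB WT + rhSOST in both osteoblast genotype and added protein, which cannot be told apart. No gene on the array passed the adjusted test in any of the 3 direct comparisons (0% of 14863, limma). At an unadjusted p under 0.05 limma called 0 of 39 proteasome genes between OB SostKO and OB WT + rhSOST, where 4.08% of all genes passed, 1 between OB WT + rhDKK1 and OB WT + rhSOST (2.57%), and 0 between OB SostKO and OB WT + rhDKK1 (0.828%). The 1 gene was PSMC3, an ATPase of the base, named after its value was seen, at 11.20 and 11.41 with rhDKK1 and 11.13, 11.12 and 10.94 with rhSOST, a log2 difference of 0.24 (limma adjusted p = 1.0).

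The intervals give a range for each gene taken singly, on its brightest probe set. They do not cover the choice of probe set, nor the 39 genes jointly. Between OB SostKO and OB WT + rhSOST the log2 differences ran from -0.18 (PSMD3) to 0.21 (PSMD11), and 38 of 39 intervals lay within 0.5 log2 units of 0. Between OB WT + rhDKK1 and OB WT + rhSOST they ran from -0.13 to 0.24, with 39 of 39 intervals inside, and between OB SostKO and OB WT + rhDKK1 from -0.12 (PSMF1) to 0.10 (PSMB6), with 38 inside. PSMF1 was the gene outside in the first and the last comparison.

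Several probe sets covered 19 of the genes, 70 kept probe sets in all. Tested one by one over all 28244 kept probe sets with a single symbol, none of the 70 passed (smallest limma adjusted p = 0.0589, 0.0990 and 0.0597 in the order OB SostKO, OB WT + rhDKK1, OB WT + rhSOST), where 1.77%, 1.92% and 4.39% of all probe sets did. The brightest probe sets spanned a median of 0.23 log2 units over the 9 arrays, and the 31 others 0.41, with a largest span of 3.44. Between probe sets of 1 gene the log2 change against untreated PC3 differed by a median of 0.31, 0.26 and 0.24.

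PSMB4 had the largest disagreement. Its brightest probe set read 12.78 and 12.84 untreated and 12.81 to 12.94 in co-culture. Its dimmest one read 7.74 and 7.18 untreated, 8.69 and 9.31 with OB SostKO, 8.80 and 8.54 with OB WT + rhDKK1, and 8.73, 8.44 and 7.87 with OB WT + rhSOST, log2 changes of 1.54, 1.21 and 0.88 (limma adjusted p = 0.0589, 0.0990 and 0.132). Its lowest values fell on both untreated arrays and on OB WT + rhSOST replicate 3, the arrays where the 18S rRNA signal was also lowest.

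The same arrays were not all low for PSME4. Its dimmest kept probe set read 5.76 and 6.94 untreated, 7.08 and 7.83 with OB SostKO, 7.82 and 6.71 with OB WT + rhDKK1, and 7.49, 6.71 and 4.39 with OB WT + rhSOST. OB WT + rhSOST replicate 3 again held the lowest value, but untreated replicate 2 lay within the co-culture range. The part of the 18S signal in either probe set was not tested.

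**Figure D4:**
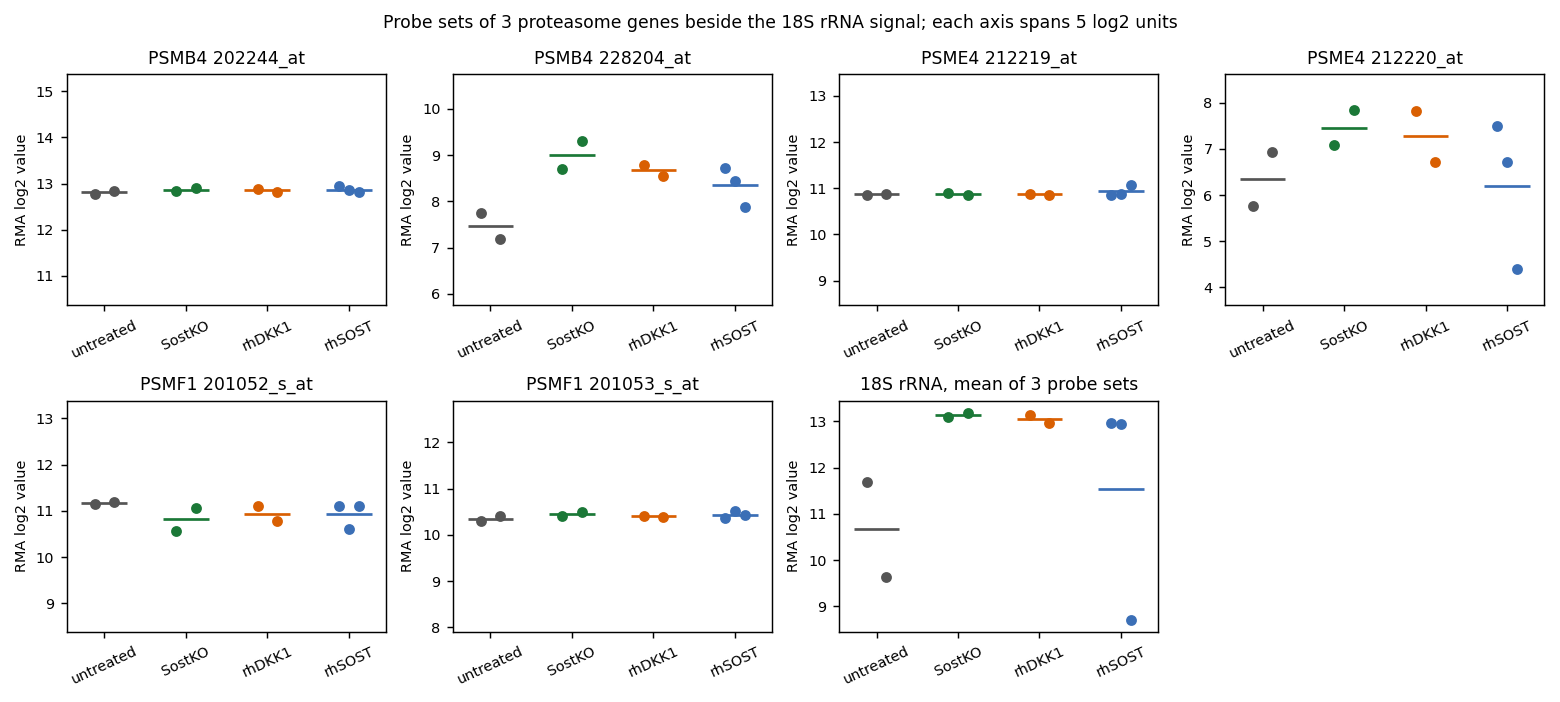
RMA log2 values on every array (points) and group means (lines) for a pair of probe sets each of PSMB4, PSME4 and PSMF1, and for the mean of the 18S rRNA probe sets, all panels spanning 5 log2 units. The bright probe sets of PSMB4 and PSME4 (left of each pair) are flat, the dim PSMB4 probe set is lowest on the untreated arrays, and OB WT + rhSOST replicate 3 is lowest in the dim PSME4 probe set and in the 18S panel.

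Genes that work with the proteasome were taken from a list of 28, of which 23 were tested: subunits and assembly factors outside the symbol rule, deubiquitinases, factors for expression and nuclear import, ubiquitin and its activating enzyme, and proteins that deliver or dock substrates. Of the 23, 0 rose and 1 fell in OB SostKO, 1 rose and 1 fell in OB WT + rhDKK1, and 3 rose and 1 fell in OB WT + rhSOST, against 2.07% and 1.65%, 2.5% and 1.76%, and 4.87% and 2.1% of all genes that rose and fell. The median log2 changes were 0.03, 0.01 and 0.04. The other members of the list were not analysed here.

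SQSTM1 (p62), a receptor that carries ubiquitinated cargo to autophagy and to the proteasome, was the gene that fell in all 3 comparisons. It read 10.59 and 10.64 untreated, 9.80 and 9.94 with OB SostKO, 9.87 and 9.74 with OB WT + rhDKK1, and 9.95, 9.84 and 10.14 with OB WT + rhSOST. The highest co-culture array lay well under both untreated ones, and the log2 changes were -0.75, -0.81 and -0.64 (SE 0.11, 0.11 and 0.10, limma adjusted p = 0.0124, 0.00825 and 0.00901). With the mean of its 4 kept probe sets the changes were -0.13, -0.23 and -0.17 and the calls were lost (limma adjusted p = 0.375, 0.124 and 0.177). Leaving out 1 array ended the call (adjusted p 0.0505 to 0.0769) without untreated replicate 1 in all 3 groups, without untreated replicate 2 in OB SostKO and OB WT + rhSOST, without OB SostKO replicate 1 in OB SostKO, and without either OB WT + rhDKK1 array in that group. With the arrays of the groups compared alone it was lost in OB SostKO and OB WT + rhDKK1 (adjusted p = 0.0906 and 0.0517).

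PAAF1, which holds assembly intermediates of the base, read 8.92 and 8.94 untreated, 9.20 and 9.17 with OB SostKO, 9.26 and 9.27 with OB WT + rhDKK1, and 9.17, 9.29 and 9.15 with OB WT + rhSOST. It lay above the untreated arrays throughout and rose in OB WT + rhDKK1 by 0.34 (SE 0.07, limma adjusted p = 0.0443) and in OB WT + rhSOST by 0.28 (SE 0.07, limma adjusted p = 0.0461). In OB SostKO the log2 change was 0.26 (limma adjusted p = 0.0984). The mean of its kept probe sets gave 0.11 and 0.02 where it had been called. Both calls were also lost without a filter, under cyclic loess, over every kept probe set and with the groups compared alone (adjusted p 0.0564 to 0.0980), and leaving out any 1 array ended both calls, except that the one in OB WT + rhDKK1 held without OB WT + rhSOST replicate 3.

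ECPAS, a scaffold that tethers the proteasome to membranes, read 10.07 and 10.25 untreated, 10.44 and 10.39 with OB SostKO, 10.46 and 10.52 with OB WT + rhDKK1, and 10.43, 10.58 and 10.60 with OB WT + rhSOST. UBE3C, a ubiquitin ligase bound to the proteasome, read 10.34 and 10.35 untreated, 10.61 and 10.60 with OB SostKO, 10.62 and 10.68 with OB WT + rhDKK1, and 10.59, 10.70 and 10.68 with OB WT + rhSOST. Both genes lay above the untreated arrays in every co-culture and rose in OB WT + rhSOST, ECPAS by 0.38 (SE 0.08, limma adjusted p = 0.0336) and UBE3C by 0.31 (SE 0.07, limma adjusted p = 0.0279). Their log2 changes in the other groups were 0.26 and 0.33 for ECPAS and 0.26 and 0.30 for UBE3C, none past the test. With the mean of the kept probe sets the changes in OB WT + rhSOST were 0.32 for ECPAS and 0.12 for UBE3C (limma adjusted p = 0.140 and 0.416). Both calls ended with the groups compared alone (adjusted p = 0.0836 and 0.0687), and that of ECPAS over every kept probe set (0.0533), while UBE3C passed in OB WT + rhDKK1 (0.0368) with the filter at the 60th percentile. Both also ended without either untreated array, without either OB WT + rhDKK1 array and without OB WT + rhSOST replicate 2 or 3.

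USP14, a deubiquitinase that sits on the regulatory particle, read 11.66 and 11.78 untreated and 11.87 to 12.08 in co-culture, with log2 changes of 0.30, 0.29 and 0.25 (limma adjusted p = 0.0934, 0.102 and 0.0957). UCHL5, the other such enzyme, read 10.03 and 10.18 untreated and 9.82 to 10.003 in co-culture, with changes of -0.16, -0.17 and -0.20 (limma adjusted p = 0.337, 0.306 and 0.177). The pair thus lay on opposite sides of the untreated arrays without passing the test.

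POMP, which chaperones the maturation of the core, read 12.48 and 12.64 untreated and 12.35 to 12.38 on all 7 co-culture arrays, with log2 changes of -0.20, -0.19 and -0.19 (limma adjusted p = 0.192, 0.195 and 0.140). ADRM1, a ubiquitin receptor of the base, read 11.11 and 11.04 untreated and 10.68 to 10.99 in co-culture, with changes of -0.25, -0.28 and -0.20 (limma adjusted p = 0.263, 0.214 and 0.299). Neither overlapped the untreated arrays. SEM1, the smallest lid subunit, overlapped them, with changes from -0.04 to 0.03.

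NFE2L1, the transcription factor of the subunit genes, read 10.85 and 10.83 untreated, 10.92 and 10.92 with OB SostKO, 10.91 and 10.93 with OB WT + rhDKK1, and 10.97, 10.92 and 11.19 with OB WT + rhSOST. Co-culture values were above the untreated ones, and the log2 changes were 0.08, 0.08 and 0.18 (SE 0.09 in each, limma adjusted p = 0.682, 0.671 and 0.242). UBA1, the enzyme that activates ubiquitin, was the most variable of the list. It ran from 9.74 to 11.15 over the co-culture arrays around untreated values of 10.60 and 10.74, and its lowest arrays, OB SostKO replicate 1, OB WT + rhDKK1 replicate 2 and OB WT + rhSOST replicate 2, were the ones on which PSMF1 was also low.

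**Figure D5:**
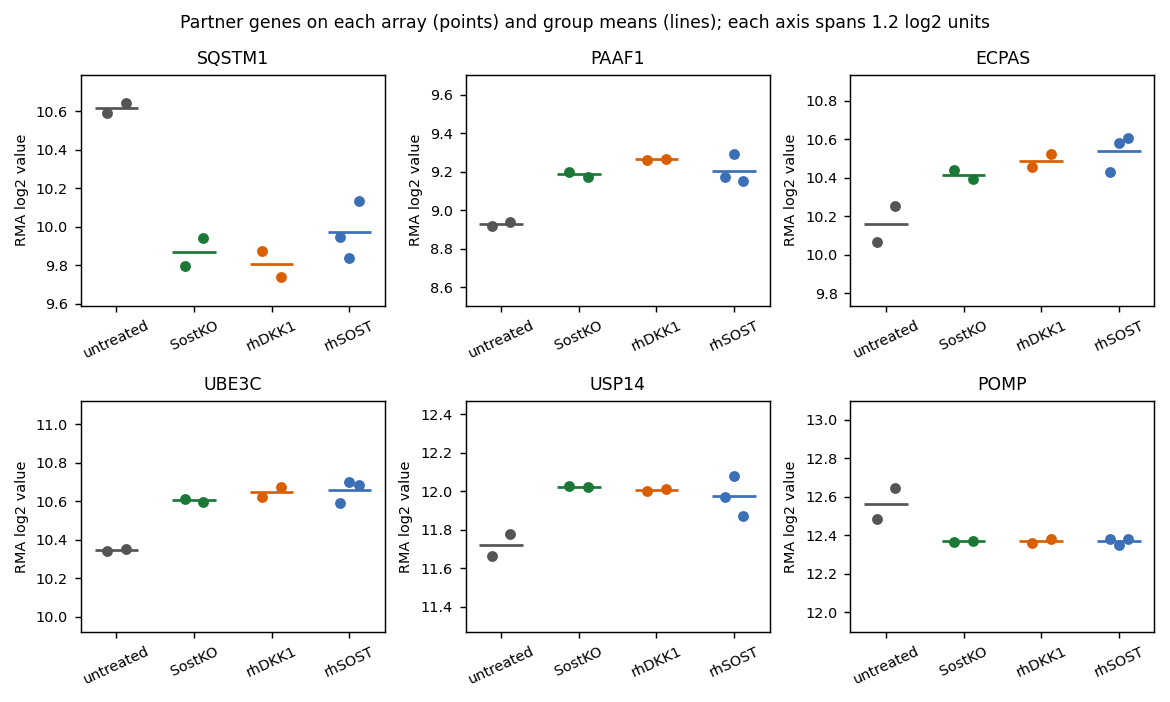
RMA log2 values of 6 partner genes on every array (points) with group means (lines), each panel spanning 1.2 log2 units. SQSTM1 is lower in all co-cultures by 0.64 to 0.81 on average, PAAF1, ECPAS, UBE3C and USP14 are higher, and POMP lies between 12.35 and 12.38 on every co-culture array.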

How the data were processed

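Total RNA of PC3 cells was labelled and hybridized to 9 arrays. The deposited values are log2 intensities that the authors made with RMA, a tool named in the submitters' notes whose version is not given in the sources used here. Replicates were not pooled. Groups and replicate numbers came from the labels.

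limma 3.58.1 under R 4.3.3 was used for the tests. The arrays hold 54675 probe sets. Without the 62 controls, 33970 passed the filter, 28244 of them with 1 symbol in the platform annotation (updated to RefSeq), 1307 with several and 4419 with none. Each of 14863 genes was read from its brightest probe set. One model over all 9 arrays gave the 6 comparisons (total degrees of freedom 8.66), with Benjamini-Hochberg adjustment over all genes and a threshold of 0.05. The procedure was tested on simulated data. p-values measure the spread between these arrays.

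Described in full were called genes, the catalytic subunits, PSMB10, the activators, PSMF1 and a member of each part. That member had the largest absolute value of its mean log2 change over the comparisons with untreated PC3. Of the partners, called genes were described in full, with NFE2L1, POMP, ADRM1, SEM1, USP14 and UCHL5. Members and lists were chosen with earlier results of these data known. Alternatives were the filter, cyclic loess, the mean of probe sets, every probe set, the groups compared alone, a replicate block, leaving out each array, and the ANOVA with Tukey comparisons and paired t-test named in the general methods. Promoters came from RefSeq GRCh38.p14 and covered 33 of the 39 genes.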

Additional observations from a re-analysis of the deposited data

How the results depend on the processing

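Counts of proteasome genes past the test stayed at 0 in OB SostKO and OB WT + rhDKK1 under every limma alternative, as did the 3 direct comparisons. The 1 call in OB WT + rhSOST (PSMA5) became 0 without a filter, with the mean of the kept probe sets, with every kept probe set and with the arrays of the groups compared alone, and 2 (PSMA5 and PSME1) under the 60th percentile filter; cyclic loess kept 1. Leaving out 1 array gave 0 to 1. Except for every kept probe set, the share of all genes called under these limma alternatives was not taken. For these counts and the partner counts below, a lost call therefore cannot be told apart from fewer calls over all genes. The methods' ANOVA with Tukey comparisons called 5, 5 and 7 genes at unadjusted p (0, 0 and 1 of them higher), against 9.09%, 9.48% and 10.9% of all genes, and the methods' paired t-test 5, 6 and 3 (2, 3 and 1 higher), against 8.26%, 8.23% and 8.62%. After adjustment both called 0. Over all genes the adjusted ANOVA called 0.0875% in each comparison and the adjusted paired t-test 0%, 0% and 0.0135%. Shares this small leave almost no room for a call among 39 genes. Where results differed, the cause was not tested.

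Of 12 pairs of arrays with the same replicate number, 4 correlated above 0.1 (range -0.57 to 0.31). The 12 are not separate checks. Pairs among the untreated, OB SostKO and OB WT + rhDKK1 arrays gave the same r for both numbers (0.21, -0.32 and -0.57). In a group of 2 arrays the deviations from the group mean are equal and opposite, so crossing the numbers turns the sign of these r. The r of -0.57 is thus a positive r of that size between OB SostKO and OB WT + rhDKK1 arrays with different numbers. Crossed correlations with OB WT + rhSOST were not taken. The values do not show that the arrays varied independently. With the replicate number as a block, the proteasome count in OB WT + rhSOST was 0 and the partner counts were 1 in OB WT + rhDKK1 and 1 in OB WT + rhSOST. Crossing the numbers, an alternative added after seeing the data, gave 0 in OB WT + rhSOST.

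The partner count in OB WT + rhDKK1 was 1 without a filter and 1 under cyclic loess, PAAF1 being lost in both. With the arrays of the groups compared alone, the calls of SQSTM1 in OB SostKO and OB WT + rhDKK1, of PAAF1 in both groups where it was called, and of ECPAS and UBE3C were lost, and with the mean of the kept probe sets all the calls of these 4 genes were. Leaving out 1 array gave 0 to 1 partner calls in OB SostKO, 0 to 2 in OB WT + rhDKK1 and 0 to 3 in OB WT + rhSOST; without either untreated array both the first and the last were 0. Without either OB WT + rhDKK1 array the count for that group was 0, and without OB SostKO replicate 1 that for OB SostKO was 0.

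Of the genes described in full, these changed sign under some alternative, none of them called then. With the mean of the kept probe sets the log2 change of NFE2L1 was -0.064 in OB SostKO and -0.0601 in OB WT + rhDKK1, that of PSME4 0.27 in OB WT + rhDKK1 and -0.037 in OB WT + rhSOST, and in OB WT + rhSOST that of PSMA5 was 0.038 and that of PSMF1 0.00513. When 1 array was left out, the OB SostKO change ran from -0.0073 to 0.20 for PSMB5, from -0.025 to 0.13 for PSMB7 and from -0.33 to 0.054 for PSMB10; the negative values of the first 2 came without replicate 1 and the positive value of the last without replicate 2. Smaller turns, within 1 SE of the value reported, came with 1 array left out for SEM1 (lowest -0.028 in OB SostKO and -0.011 in OB WT + rhSOST), PSMB5 (-0.0052 in OB WT + rhDKK1), PSMB7 (0.00081 in OB WT + rhSOST) and PSME4 (-0.013 in OB SostKO, up to 0.0114 in OB WT + rhDKK1).

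The median log2 change of the proteasome genes in OB WT + rhSOST was -0.0147 with the mean of the kept probe sets and -0.0194 with the replicate block. Without OB SostKO replicate 2 the median difference of OB SostKO was 0.056 from OB WT + rhSOST and 0.053 from OB WT + rhDKK1, and without replicate 1 it was -0.021 from the latter.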
